A study of Mus musculus with 5 samples.

Results

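Epithelial cells of the mammary gland are held together by tight junctions, adherens junctions and desmosomes, and the genes of these structures were followed here in 37 members chosen by name: 14 claudins, 8 other tight junction genes, 7 genes of adherens junctions and epithelial adhesion, and 8 desmosome genes. All 37 had a probe set assigned to 1 gene symbol, out of 19938 genes measured in total RNA of whole mammary gland on Affymetrix whole-transcript arrays. The arrays came from female FvB/N mice aged 8 weeks, 1 mouse per array. The control group (n = 2) carried the MMTV-rtTA transgene alone, and the cyclin D1 group (n = 3, labelled rtTA/CCND1) carried rtTA and a cyclin D1 transgene. All 5 mice thus had rtTA, the doxycycline-dependent activator, under a mammary tumour virus promoter that is active mainly in mammary epithelium. The protocol gives 7 days of doxycycline, but it is worded for a "KE" mutant of cyclin D1 and does not say whether controls received the drug. The series' title and design pose the question of how expression in the gland differs after acute cyclin D1 expression.

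Tight junctions seal the space between luminal cells near their apical surface. Claudins form the sealing strands and, in some family members, ion pores; ZO proteins anchor the strands to actin. Adherens junctions are built on E-cadherin, whose tail binds beta-catenin and p120-catenin, while alpha-catenin couples the complex to actin. Desmosomes join keratin filaments of neighbouring cells through desmogleins, desmocollins, plakophilins, plakoglobin and desmoplakin. In the gland, tight junctions close as milk secretion starts and keep milk components in the lumen.

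Epcam, Cdh1 (E-cadherin), Ctnna1 (alpha-catenin) and Tjp1 (ZO-1) rose in cyclin D1 glands, by 1.37 to 2.49 in log2 units. Limma with Benjamini-Hochberg adjustment over all genes called 4 of the 37 members higher and 0 lower. A call here means an adjusted p under 0.05. Among all 19938 genes 5.38% were called higher and 0.687% lower. Before adjustment, 15 members were higher and 2 lower at p under 0.05, against 3235 and 2009 of all genes. The 3 cyclin D1 values lay above both controls in 17 members and below both in 5, where 22.4% and 22.6% of all genes did so. The median log2 difference, cyclin D1 minus control, was 0.21 over the 37 members and -0.05 over all genes. By junction type, the median was 1.27 for adherens and adhesion genes, 0.47 for non-claudin tight junction genes, 0.05 for claudins and -0.13 for desmosome genes; differences between the types were not tested. In RNA of whole tissue, more epithelial cells and more RNA per cell cannot be told apart.

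The arrays differed in spread, which bears on every count. The SD across genes was 0.73 and 0.93 on the control arrays and 1.20 to 1.38 on the cyclin D1 arrays. The gene values of the 5 arrays were therefore also quantile-normalized again, termed renormalized below, which gives all arrays the same distribution. After renormalization limma called 0 of the 37 members in either direction, with 7 higher and 1 lower at an unadjusted p under 0.05, where all 19938 genes had 1861 and 1875 at that p. Of all genes, 0.256% were then called higher and 0.105% lower. The members' median difference was then 0.18 and that of all genes -0.02. With 1 array fewer the number of calls varied, while the differences of the 4 called members stayed positive, at 2.20 to 2.78 for Epcam, 2.34 to 2.50 for Tjp1, 1.24 to 1.50 for Cdh1 and 1.12 to 1.62 for Ctnna1. Without control 1, without cyclin D1 replicate 1 or without cyclin D1 replicate 2, limma called 0 members, and also 0 of all genes. Without cyclin D1 replicate 3, Tjp1 alone was called, where 1.5% of all genes were called higher and 0.01% lower. Leaving out a control leaves 1 control mouse, which is then assumed to vary like the cyclin D1 mice. Without control 2 the calls were Tjp1, Epcam, Cdh1 and Cldn3 higher and Cldn2 and Dsc3 lower, where 6.85% of all genes were called higher and 5.33% lower. With the arrays renormalized and control 1 left out, Epcam, Tjp1, Ctnna1 and Ctnnb1 were called higher and Evpl lower, against 2.78% and 4.48% of all genes.

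**Figure D1:**
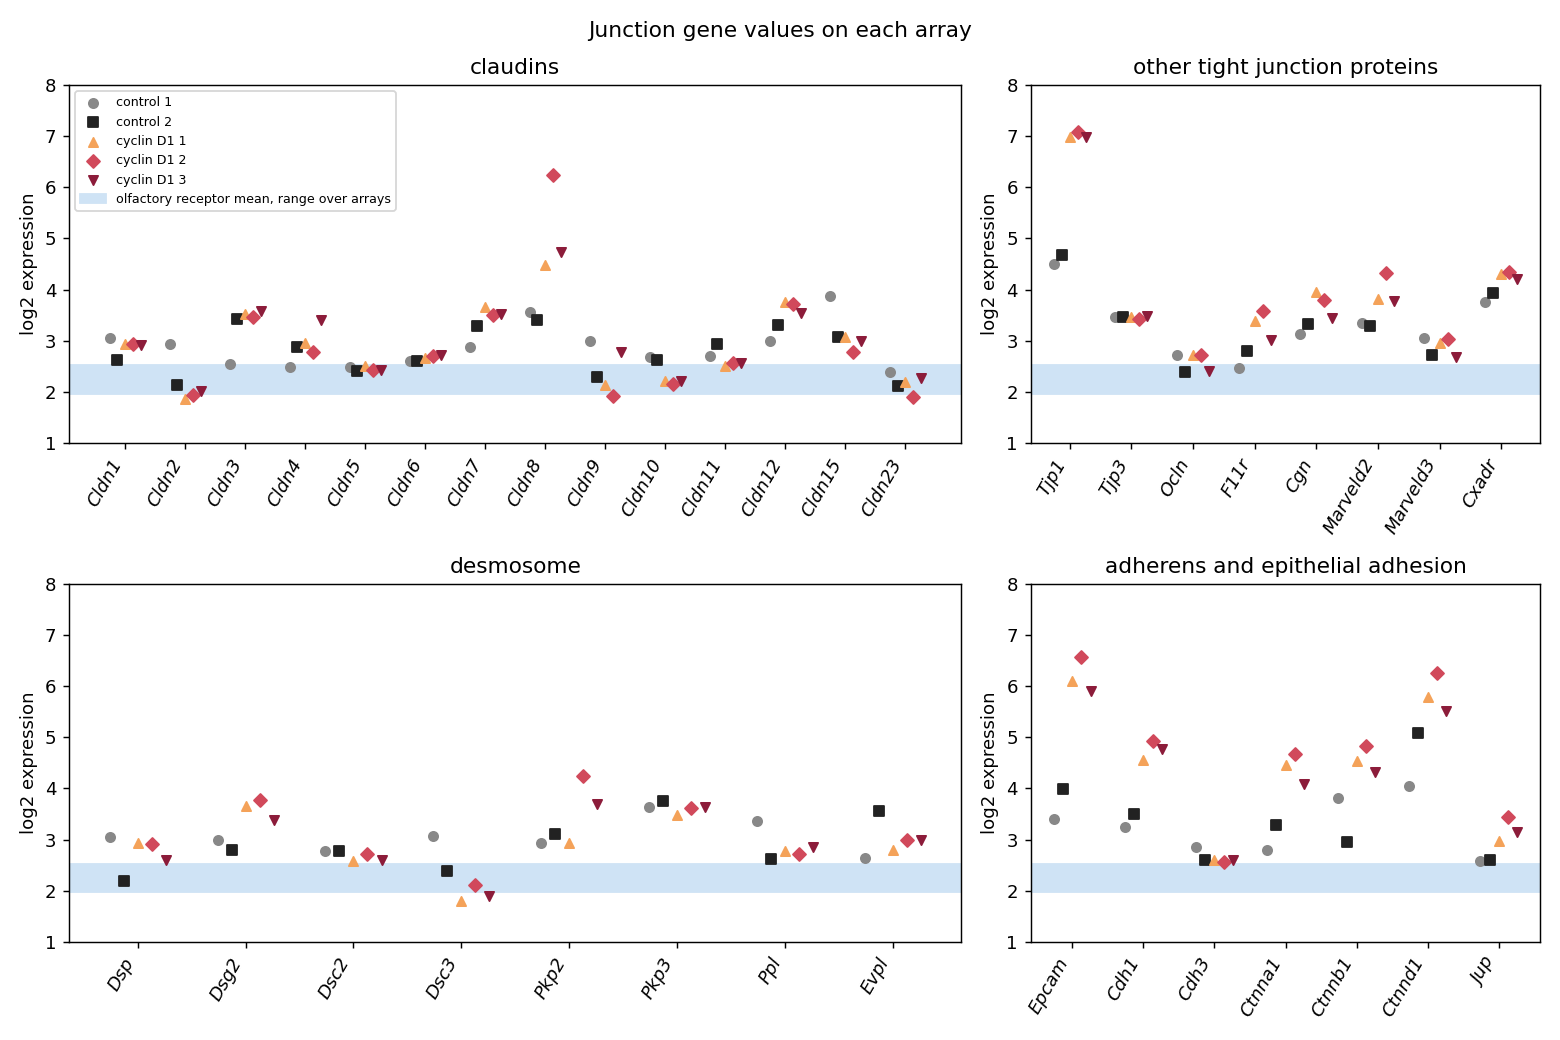
Log2 expression of each junction gene (y axis) on the 5 arrays, in 4 panels by junction type; grey and black points are controls 1 and 2, coloured points the 3 cyclin D1 replicates, and the band spans the mean of the olfactory receptor genes over the arrays, from 1.97 to 2.52. Epcam, Tjp1 and the cadherin and catenin genes Cdh1, Ctnna1, Ctnnb1 and Ctnnd1 separate by group, while most claudins and desmosome genes stay between 2 and 4.

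Promoter sequences from RefSeq (GRCm38.p6) were looked at for the members as a description. The table used held 31 promoters of 22 of the 37 members, among them Epcam and Tjp1 but not Cdh1 or Ctnna1. It gives 250 bases before and 50 after each start. The letters CACCTG, an E-box to which the Snail and ZEB repressors of epithelial genes are known to bind, were searched on both strands, as was AACCNGTT, a core recognised by Grainyhead-like factors. The Epcam promoter is shown because it holds CACCTG on each strand, the Tjp1 promoter because the gene with the largest separation of groups relative to its error holds neither motif, and the Cgn promoter because it holds AACCNGTT. Only bases before the start are printed, 5′ to 3′ on the gene's strand, with motif letters in capitals.
Epcam, chr17:87635729-87635978, plus strand: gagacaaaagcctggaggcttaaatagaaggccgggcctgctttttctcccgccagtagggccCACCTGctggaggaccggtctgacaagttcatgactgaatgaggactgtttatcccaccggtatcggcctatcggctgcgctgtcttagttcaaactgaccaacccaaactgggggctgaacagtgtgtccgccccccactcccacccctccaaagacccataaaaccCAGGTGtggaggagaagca
Tjp1, chr7:65371245-65371494, minus strand: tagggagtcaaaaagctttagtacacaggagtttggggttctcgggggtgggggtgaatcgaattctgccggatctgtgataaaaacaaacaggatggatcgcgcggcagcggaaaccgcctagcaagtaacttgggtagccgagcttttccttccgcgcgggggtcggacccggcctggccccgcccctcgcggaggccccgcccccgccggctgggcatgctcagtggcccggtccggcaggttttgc
Cgn, chr3:94786483-94786732, minus strand: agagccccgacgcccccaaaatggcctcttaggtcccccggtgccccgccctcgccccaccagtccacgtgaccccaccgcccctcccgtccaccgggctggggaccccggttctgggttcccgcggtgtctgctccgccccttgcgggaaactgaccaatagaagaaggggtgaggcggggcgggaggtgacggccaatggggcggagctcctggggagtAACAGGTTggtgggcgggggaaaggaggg
In Epcam the matches begin at bases -187 and -19 from the start, and in Cgn at -29. CACCTG or its reverse complement occurred in 10 of the 22 member genes (45.5%) and in 22.6% of the 27025 genes in the table. Counted by promoter and not by gene, it occurred in 20.2% of all 32851. Members had 31 promoters for 22 genes, and the part of promoters per gene in these shares was not tested. Of the members called higher, only Epcam was among those 10. AACCNGTT occurred in 2 of the 22 (9.09%), Cgn and Cldn5, and in 2.35% of all genes. The Tjp1 start lies inside the annotated span of the gene. These are matches of letters, with no measurement of binding.

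Epcam encodes an epithelial adhesion glycoprotein that binds claudin-7 and is a general marker of epithelium. Its log2 expression was 3.41 and 3.99 in controls 1 and 2 and 6.10, 6.57 and 5.90 in cyclin D1 replicates 1, 2 and 3. The lowest cyclin D1 value stood well clear of both controls, and the spread within each group was small beside the gap. The means were 3.70 ± 0.41 (SD, n = 2) and 6.19 ± 0.34 (SD, n = 3), a 5.63-fold rise, or 2.49 in log2 units (SE 0.28, limma adjusted p = 0.0184). Renormalized, the difference was 1.54 (adjusted p = 0.0630), and the 3 cyclin D1 values of 5.45, 5.74 and 5.53 still lay above control values of 3.70 and 4.37.

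Cdh1, which encodes E-cadherin, had log2 values of 3.24 and 3.51 in the controls and 4.55, 4.92 and 4.77 in the cyclin D1 glands. All cyclin D1 values were above both controls. The rise was 2.59-fold, or 1.37 in log2 units (SE 0.17, limma adjusted p = 0.0228), and 0.88 after renormalization (adjusted p = 0.0801). Cdh3, its immediate neighbour among coding genes in the RefSeq table, encodes P-cadherin, the classical cadherin of myoepithelial cells. It stood at 2.85 and 2.60 in the controls and 2.60, 2.56 and 2.60 in the cyclin D1 glands, values that meet between the groups. The Cdh3 difference was -0.14 (SE 0.14, adjusted p = 0.555). The difference between both cadherins was not tested.

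Catenins link cadherins to the cytoskeleton and to signalling. Ctnna1 (alpha-catenin, the actin link) went from log2 values of 2.79 and 3.29 to 4.45, 4.68 and 4.09, without overlap. It rose by 1.37 in log2 units (SE 0.25, limma adjusted p = 0.0417), and its renormalized difference of 1.09 (adjusted p = 0.0800) was the second largest among the members, after that of Epcam. Ctnnb1 (beta-catenin, which binds the cadherin tail and also acts in Wnt signalling) stood at 3.81 and 2.95 in control glands and 4.53, 4.83 and 4.31 in the cyclin D1 glands. The groups did not overlap, but both controls were far apart, and the difference of 1.18 (SE 0.30, adjusted p = 0.0849) did not pass. Renormalized, control 1 at 4.59 was above all 3 cyclin D1 values of Ctnnb1, which were 4.22, 4.32 and 4.22.

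Ctnnd1 (p120-catenin, which keeps cadherin at the surface) had log2 values of 4.05 and 5.09 in the controls and of 5.79, 6.24 and 5.50 in cyclin D1 glands. It was higher in every cyclin D1 gland as deposited, by 1.27 (SE 0.38, limma adjusted p = 0.110). After renormalization its difference was -0.15, with control values of 5.10 and 5.73 on both sides of the cyclin D1 values of 5.18, 5.44 and 5.18, so no direction holds on both scales. Jup (plakoglobin, shared by adherens junctions and desmosomes) was dimmer, at 2.58 and 2.60 against 2.96, 3.44 and 3.15. The Jup difference was 0.59 (SE 0.18, adjusted p = 0.117), with the renormalized 0.64 as large. In all, 3 of the 7 adherens and adhesion genes rose and 0 fell, and 6 of 7 had all cyclin D1 values above both controls. Of all genes, 5.38% were called higher and 22.4% lay above both controls. Renormalized, 0 of the 7 were called and 4 lay above both controls, as did 4012 of all 19938 genes. Their median difference was 1.27 for the 7 genes, or 0.64 renormalized.

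**Figure D2:**
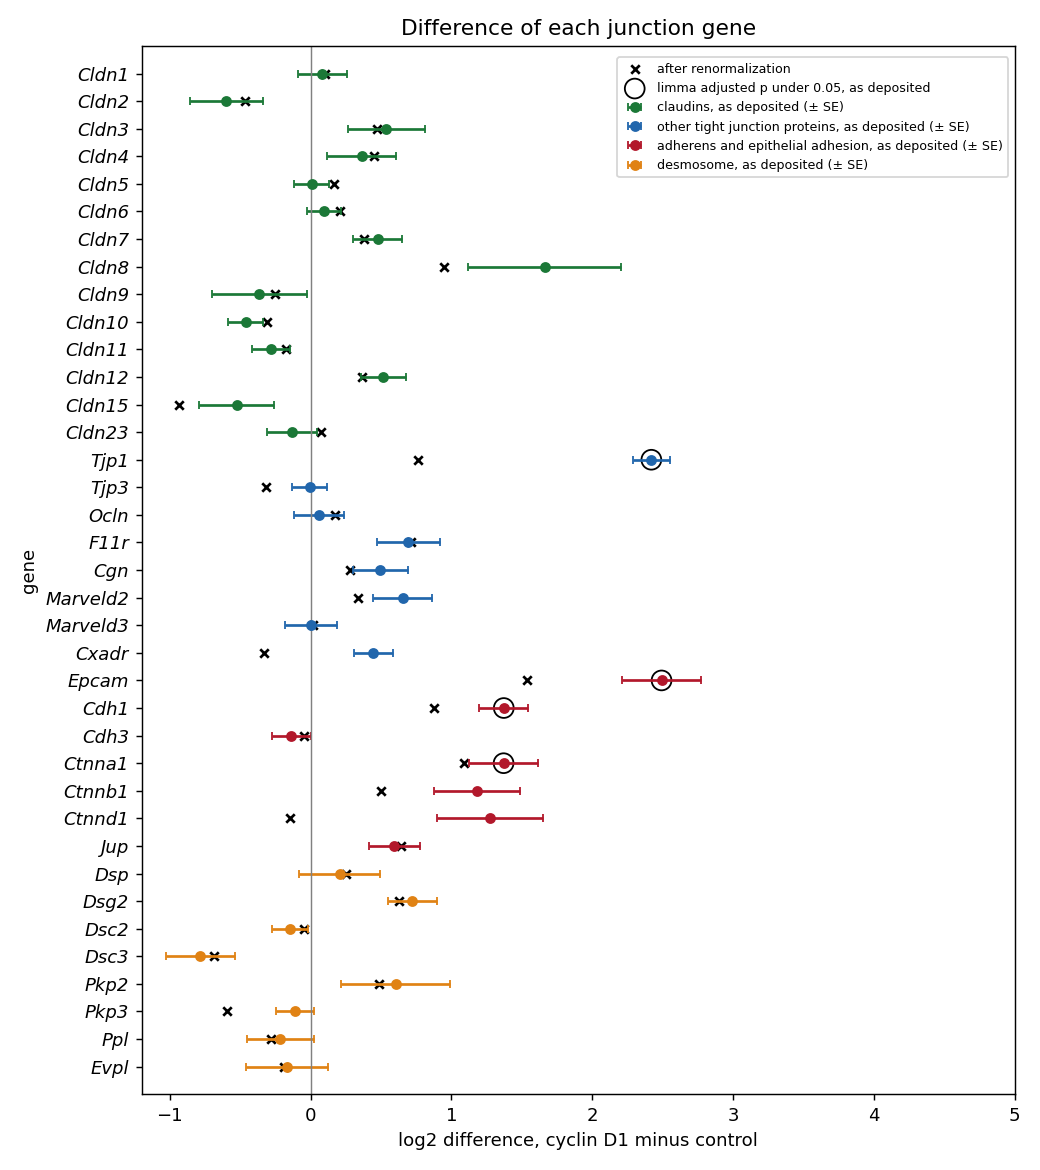
Log2 difference of each junction gene, cyclin D1 minus control (x axis), as deposited with its SE (coloured points, by junction type) and after renormalization (crosses); ringed points passed limma at an adjusted p under 0.05. Tjp1, Epcam, Cdh1 and Ctnna1 are ringed, the renormalized cross lies at 0.76 for Tjp1 against 2.42 as deposited, and those of Ctnnd1 and Cxadr lie left of 0.

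Tjp1 encodes ZO-1, the scaffold that ties claudins and occludin to actin and is also found at adherens junctions. Its log2 expression was 4.51 and 4.67 in the controls and 6.98, 7.08 and 6.97 in the cyclin D1 glands. Replicates lay within a narrow band in each group and the groups were far apart. The rise was 5.35-fold, or 2.42 in log2 units (SE 0.13, limma adjusted p = 0.0102), the smallest p among the members. Tjp1 was also the brightest member, and its renormalized difference shrank to 0.76 (adjusted p = 0.160), with control values of 5.82 and 5.28 and cyclin D1 values of 6.23, 6.20 and 6.51. Tjp3 (ZO-3, a related scaffold) was nearly level, at 3.47 in both controls and 3.47, 3.42 and 3.49 in the cyclin D1 glands. Its difference was -0.01 (SE 0.12, adjusted p = 0.978); it was 0.06 with median centring and -0.31 renormalized.

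The other tight junction genes did not pass. F11r (JAM-A, an immunoglobulin-like adhesion protein) stood at 2.47 and 2.80 in control glands and 3.39, 3.59 and 3.01 in the cyclin D1 glands. Its groups did not overlap, but the difference of 0.69 (SE 0.22, limma adjusted p = 0.132; 0.71 renormalized) did not pass. The average of the olfactory receptor genes, which are taken to be silent in the gland, served as a rough signal floor for each array. Control 1 was under this floor for F11r, so its difference is inexact. Marveld2 (tricellulin, which seals corners where 3 cells meet) stood at 3.34 and 3.30 against 3.82, 4.32 and 3.78, a difference of 0.65 (SE 0.21, adjusted p = 0.127). Ocln (occludin), the immediate neighbour of Marveld2 among coding genes, stood at 2.72 and 2.39 against 2.72, 2.72 and 2.41, and these values overlap almost fully.

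Cgn (cingulin, a cytoplasmic linker to actomyosin) stood at 3.14 and 3.33 in the controls and 3.95, 3.79 and 3.44 in the cyclin D1 glands, a difference of 0.50 (SE 0.20, limma adjusted p = 0.188). Cxadr (the coxsackievirus and adenovirus receptor, an adhesion protein of tight junctions) was brighter, at 3.75 and 3.94 against 4.31, 4.34 and 4.21. Every cyclin D1 value of Cxadr exceeded both controls as deposited, by 0.45 on average (SE 0.14, adjusted p = 0.119). Renormalized, every cyclin D1 value was lower instead, at 4.05, 3.98 and 4.12 against 4.47 and 4.30, and the difference was -0.33 (adjusted p = 0.292). Marveld3, of the same family as occludin, differed by 0.002 (SE 0.18). Of the 8 non-claudin tight junction genes 1 rose and 0 fell, and 5 had cyclin D1 values above both controls. Of all genes, 5.38% were called higher and 22.4% lay above both controls. Renormalized, 0 of the 8 were called, with 4 above and 2 below both controls. Of all 19938 genes, 4012 and 3878 then did so. The median difference of the 8 genes was 0.47, or 0.23 renormalized.

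None of the 14 claudins passed limma. At an unadjusted p under 0.05 there were 3 higher and 1 lower, and 0 in either direction after renormalization. For comparison, 5.38% of all 19938 genes were called higher and 0.687% lower, and 3235 and 2009 had that unadjusted p. After renormalization 1861 and 1875 did. Cldn8, a barrier-forming claudin known from tight epithelia, had the largest difference among the claudins. Its log2 values were 3.56 and 3.41 in the controls and 4.48, 6.23 and 4.74 in the cyclin D1 glands. The groups were separate, but cyclin D1 replicate 2 stood far above the other cyclin D1 values. The difference was 1.66 (SE 0.54, limma adjusted p = 0.133), or 0.95 renormalized. Cldn8 was also the brightest of the claudins, and the other 13 had means over the 5 arrays below 4.

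Cldn3, Cldn4 and Cldn7 are sealing claudins of glandular epithelium. For Cldn3, control 1 at 2.54 stood apart from control 2 at 3.42, and the latter was close to the cyclin D1 values of 3.52, 3.46 and 3.57. The Cldn3 difference of 0.54 (SE 0.27, limma adjusted p = 0.279) depended on the control kept: it was 0.10 without control 1 and 0.98 without control 2. Cldn4, its immediate neighbour, stood at 2.49 and 2.89 against 2.96, 2.79 and 3.41, with overlap. Cldn7, the claudin that binds EpCAM, stood at 2.87 and 3.29 against 3.66, 3.50 and 3.52, all above both controls, a difference of 0.48 (SE 0.18, adjusted p = 0.165). Cldn12, a claudin without the usual ZO-binding tail, stood at 3.01 and 3.31 against 3.77, 3.72 and 3.55, a difference of 0.52 (SE 0.16, adjusted p = 0.124).

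Several claudins were on the lower side in cyclin D1 glands. Cldn10, an ion channel claudin, stood at 2.68 and 2.62 in the controls and 2.21, 2.15 and 2.21 in the cyclin D1 glands. The groups did not overlap, and the difference of -0.46 (SE 0.12, limma adjusted p = 0.0930) was the nearest to a call among the claudins. A further probe set of Cldn10 differed by -0.42. For Cldn10, cyclin D1 replicate 3 was no higher than the floor. The floor itself stood at 2.52 and 2.38 on the control arrays and at 2.03, 1.97 and 2.23 on the cyclin D1 arrays. The part of the floor in the lower values of dim claudins was not tested. Cldn2, a cation and water pore of leaky epithelia, stood at 2.94 and 2.14 against 1.87, 1.95 and 2.01. All 3 cyclin D1 values of Cldn2 were no higher than the floor, so the difference from both controls has only a bound, of -0.46 or lower. That bound rests on control 1, since control 2 was also at or below the floor; without control 1 the difference was -0.20, and -0.01 when also renormalized.

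Cldn15, a cation pore best known from gut, stood at 3.88 and 3.07 in the controls and 3.07, 2.78 and 2.99 in the cyclin D1 glands, so that control 1 alone was apart. Cldn11, known from myelin and testis, was below both controls in every cyclin D1 gland, with a difference of -0.28 (SE 0.14, adjusted p = 0.263), whereas Cldn9 overlapped between groups. Cldn5, the claudin of endothelium, was level at 2.48 and 2.41 against 2.51, 2.43 and 2.43. Cldn1 and Cldn6 differed by 0.08 and 0.10, and Cldn23 was no higher than the floor in both controls, with a difference of -0.13 as deposited and 0.07 renormalized. Over all 14 claudins the median difference was 0.05, with 8 positive and 6 negative.

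Desmosome genes were mixed. Of 8, limma called 0, with 1 higher and 1 lower at an unadjusted p under 0.05 on either scale. The median difference was -0.13 (-0.12 renormalized). Among all 19938 genes 5.38% were called higher and 0.687% lower, with 3235 and 2009 at that unadjusted p (1861 and 1875 renormalized). All cyclin D1 values lay above both controls in 22.4% of all genes and below both in 22.6%. The higher desmosome gene was Dsg2 on both scales, and the lower was Dsc3 as deposited but Pkp3 renormalized. Dsg2, the desmoglein of simple epithelia, stood at 2.98 and 2.79 in the controls and 3.66, 3.78 and 3.38 in the cyclin D1 glands. It was the only desmosome gene with all cyclin D1 values above both controls, by 0.72 on average (SE 0.17, limma adjusted p = 0.0744; 0.62 renormalized). Dsc2, the desmocollin paired with it in simple epithelia, stood at 2.78 and 2.77 against 2.57, 2.71 and 2.60. Dsc3, a desmocollin of stratified and basal epithelium and the immediate neighbour of Dsc2, stood at 3.06 and 2.38 against 1.79, 2.12 and 1.90. Both desmocollins were below both controls in every cyclin D1 gland, but their differences of -0.15 (adjusted p = 0.490) and -0.78 (adjusted p = 0.123) did not pass. For Dsc3, 2 of the 3 cyclin D1 values were no higher than the floor.

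In the 5 plaque and linker genes of desmosomes the groups overlapped as deposited. Dsp (desmoplakin, the keratin anchor) stood at 3.04 and 2.19 in the controls, on either side of 2.94, 2.92 and 2.60 in the cyclin D1 glands. Pkp2 (plakophilin-2) reached 4.24 in cyclin D1 replicate 2 but 2.94 in replicate 1, which lay between controls of 2.93 and 3.11, and its difference was 0.60 (SE 0.39, limma adjusted p = 0.364). Pkp3, Ppl (periplakin) and Evpl (envoplakin) differed by -0.11, -0.21 and -0.17, each with overlapping groups. Ppl and Evpl, best known from stratified epithelium, had controls of 3.36 and 2.63, and 2.63 and 3.55, so the controls differed from each other by more than the group means did.

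**Figure D3:**
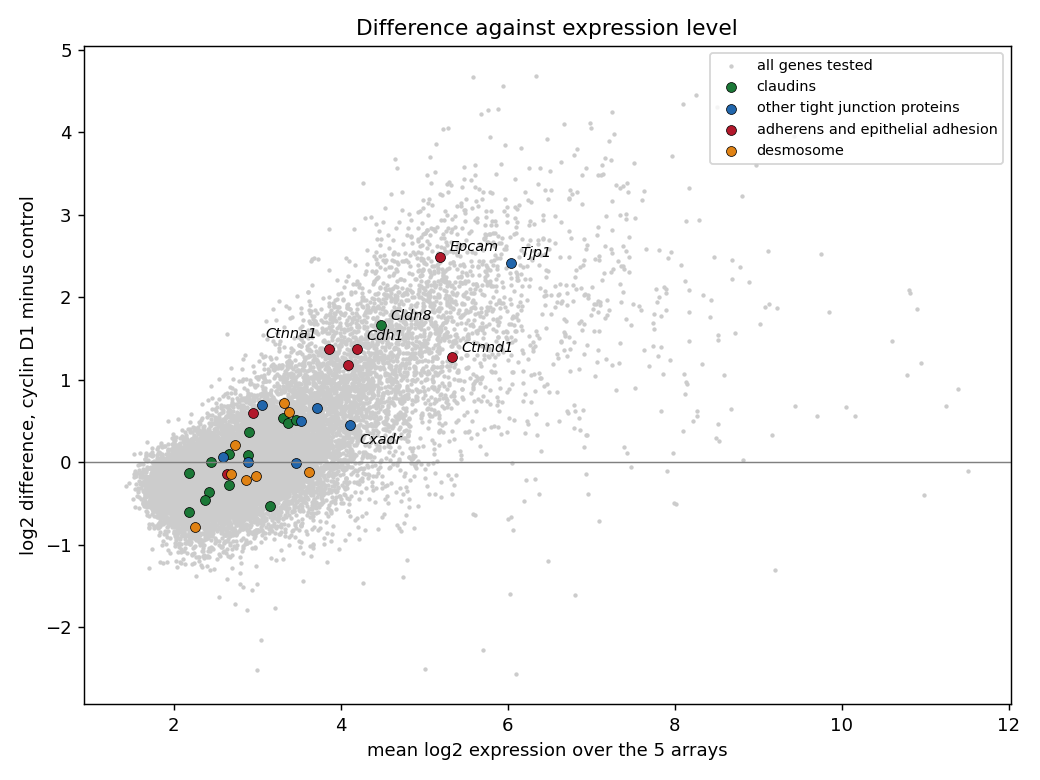
Log2 difference, cyclin D1 minus control (y axis), against the mean log2 expression over the 5 arrays (x axis) for all 19938 genes (grey) and the junction genes (coloured by type). The grey cloud climbs with expression level, and the members lie within it, with Tjp1, Epcam and Ctnnd1 at means above 5.

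Differences followed expression level in the whole table, and the members were read beside genes of like level. The level is the mean over all 5 arrays, so the difference itself helps to set it: of the 7 members at 4 or more, 5 had a control mean under 4, and Tjp1 and Ctnnd1 did not. Of the 7 members with a mean log2 value of 4 or more, 3 rose (Tjp1, Epcam and Cdh1) and 0 fell, while 30.4% of all 2888 genes at that level were called higher and 0.0346% lower. Their median difference was 1.37 and that of all genes at that level 1.34. The 7 were Cldn8, Tjp1, Cxadr and the adherens and adhesion genes Epcam, Cdh1, Ctnnb1 and Ctnnd1, with no desmosome gene. The part of expression level in the medians by junction type was not tested. Of the 12 members with a mean of 3 to 4, 1 rose (Ctnna1) and 0 fell, against 3.68% and 0.374% of 5078 genes, with medians of 0.53 and 0.16. Of the 18 members below 3, limma called 0 in either direction, with 1 higher and 2 lower at an unadjusted p under 0.05, where all 11972 genes at that level had 186 and 1759. Of those genes 0.0668% were called higher and 0.977% lower. Of the 37 members, 28 were above the floor on every array, and 9 were at or below it on at least 1.

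Markers of the cell types in the gland were read beside these results. The luminal list (Krt8, Krt18, Krt19, Krt7, Muc1, Gata3, Spdef and Cd24a) had a mean log2 level of 4.12 and 4.23 in the controls and 5.11, 5.13 and 4.88 in the cyclin D1 glands. Limma called 0 of these 8 genes, with 4 higher at an unadjusted p under 0.05, and 5 had all cyclin D1 values above both controls. Of all 19938 genes, 5.38% were called higher, 3235 were higher at that unadjusted p, and 22.4% lay above both controls. The 5 milk protein genes of secretory cells stood at a mean of 8.33 and 9.20 against 11.01, 11.53 and 10.95, and 3 of them rose. The 9 basal and myoepithelial genes stood at 3.13 and 3.44 against 3.83, 3.99 and 3.69, and 1 of them, the contractile gene Acta2, rose. Other basal genes went against the mean of their list: Krt14, Krt17, Oxtr and Lgals7 differed by -0.10, -0.25, -0.29 and -0.08. Krt5, Trp63, Myh11 and Cnn1 differed by 0.55, 0.36, 1.66 and 0.65. Milk protein genes were far above the floor on every array, in accord with the labelled tissue, and no gene of these 3 lists was at or under the floor on every array. After renormalization limma called 0 genes of these 3 lists, with 3 milk protein genes and 1 basal gene higher at an unadjusted p under 0.05. On that scale 0.256% of all genes were called higher and 0.105% lower, and 1861 and 1875 had that unadjusted p. The lists' median differences went from 0.79 to 0.13 (luminal), from 2.08 to 0.98 (milk proteins) and from 0.36 to 0.06 (basal). The part of these epithelial markers in the junction gene differences was not tested.

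The remaining lists held no called gene. Adipocyte genes averaged 5.19 and 5.25 in the controls and 5.88, 4.58 and 5.39 in the cyclin D1 glands, and fibroblast genes 3.88 and 5.09 against 5.09, 4.52 and 4.90. Endothelial genes, which bear on Cldn5, averaged 2.81 and 3.12 against 3.21, 3.22 and 3.09. Macrophage genes averaged 3.25 and 3.08 against 4.38, 3.53 and 3.53, and this mean was thus also higher in every cyclin D1 gland. So was the mean of 3 nerve genes, at 3.91 and 3.998 against 4.23, 4.15 and 4.15. Among macrophage genes Cd68 and Mrc1 separated by group, Adgre1 and Lyz2 overlapped, and Csf1r and Cd163 differed by -0.02 and -0.17. Of the nerve genes only Sox10 separated by group. Lymphocyte genes averaged 3.10 and 3.37 against 3.00, 3.92 and 2.84, and skeletal muscle genes 2.90 and 2.81 against 2.60, 2.59 and 2.70. Skin keratinocyte genes, which bear on Dsc3, Ppl and Evpl, averaged 2.86 and 2.61 against 2.50, 2.36 and 2.61, and Lor among them was no higher than the floor on every array. Limma called 0 genes in the adipocyte, endothelial, fibroblast, macrophage, lymphocyte, muscle, nerve and keratinocyte lists. At an unadjusted p under 0.05, 2 macrophage genes and 1 nerve gene were higher and 1 keratinocyte gene was lower. Among all 19938 genes 5.38% were called higher and 0.687% lower, and 3235 and 2009 had that unadjusted p. After renormalization these lists again held 0 called genes; the median difference went from 0.61 to 0.09 for macrophage genes, from 0.09 to -0.23 for nerve genes, from 0.38 to -0.37 for fibroblast genes and from -0.06 to -1.01 for adipocyte genes. At an unadjusted p under 0.05, 1 macrophage gene was then higher, and 3 fibroblast, 2 muscle, 1 adipocyte, 1 nerve and 1 keratinocyte gene were lower. On that scale 0.256% of all genes were called higher and 0.105% lower, and 1861 and 1875 had that unadjusted p.

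**Figure D4:**
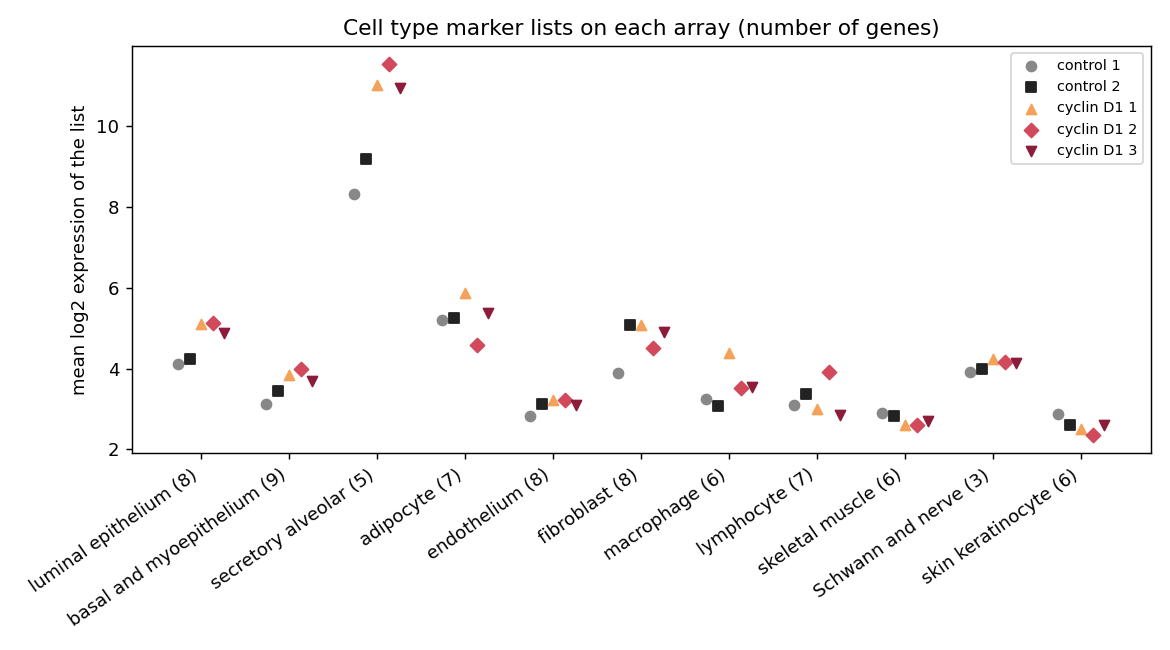
Mean log2 expression of each cell type marker list (y axis) on the 5 arrays, with the number of genes in brackets, as deposited; symbols mark the arrays. Mean levels of the luminal, basal, secretory, macrophage and nerve lists are higher in all 3 cyclin D1 glands than in both controls. The muscle mean is lower, and the adipocyte, fibroblast, endothelial, lymphocyte and keratinocyte means overlap between groups. Single genes of a list can go against its mean.

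Other junction and polarity genes were read from a wider list of 62 measured genes. Of these, limma called 2 higher (Afdn and Sympk) and 0 lower, with 11 higher and 6 lower at an unadjusted p under 0.05. The median difference was 0.01. Of all genes, 5.38% were called higher and 0.687% lower, and 3235 and 2009 of 19938 had an unadjusted p under 0.05. Renormalized, 0 of the 62 were called, with 4 higher and 7 lower at that unadjusted p. On that scale 0.256% of all genes were called higher and 0.105% lower, and 1861 and 1875 had that unadjusted p. Afdn (afadin, which links nectins to actin at adherens junctions) stood at 3.84 and 4.45 in the controls and 5.43, 5.91 and 5.33 in the cyclin D1 glands. It rose by 1.41 in log2 units (SE 0.27, limma adjusted p = 0.0479), with a difference of 0.21 after renormalization. Sympk (symplekin, an RNA 3′-end processing scaffold also seen at tight junctions) was called at 3.71 (SE 0.55, adjusted p = 0.0296). That value belongs to a pair of probe sets with identical values on every array, the remaining probe set of the gene differed by -0.02, and whether the pair measures Sympk was not tested, so no direction is given for this gene. The next smallest p-values were those of the gap junction gene Gjb2 (a connexin), at 1.56 (adjusted p = 0.0607; -0.02 renormalized), and Cldnd1, a claudin-domain gene, at 1.37 (adjusted p = 0.0725).

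Transcription factors and splicing factors that act on epithelial junction genes were read from a list of 23. Of these 2 rose and 0 fell, with 4 higher and 2 lower at an unadjusted p under 0.05. Of all genes, 5.38% were called higher and 0.687% lower, and 3235 and 2009 of 19938 had an unadjusted p under 0.05. Renormalized, 0 of the 23 were called, with 4 higher and 3 lower at that unadjusted p. On that scale 0.256% of all genes were called higher and 0.105% lower, and 1861 and 1875 had that unadjusted p. The median difference of the 23 went from 0.27 to -0.05. Ehf, an ETS factor of epithelium, stood at 3.92 and 4.73 in the controls and 6.88, 6.88 and 7.17 in the cyclin D1 glands, a rise of 2.65 (SE 0.27, limma adjusted p = 0.0168; 1.21 renormalized). Elf5, the ETS factor of alveolar cells, stood at 2.94 and 3.89 against 6.64, 7.39 and 6.52. It rose by 3.43 (SE 0.39, limma adjusted p = 0.0192). Renormalized, Elf5 differed by 2.58 (limma adjusted p = 0.063), and Ehf had a limma adjusted p = 0.108. Esrp1, which sets epithelial splicing, among others of Ctnnd1, stood at 3.04 and 3.64 against 4.51, 5.61 and 4.40, separate but not passing (1.50, SE 0.43, adjusted p = 0.102). Twist2, a factor of mesenchymal cells, differed by -0.41 (SE 0.14, adjusted p = 0.150). Related factors went both ways, and none was called. Snai1 and Snai3 differed by -0.23 and -0.38, or -0.68 and -0.30 renormalized. Snai2, Zeb1, Zeb2, Twist1, Tcf3 and Tcf4 differed by 0.34, 0.27, 0.51, 0.34, 0.16 and 0.33. Renormalized, Snai2, Zeb1 and Tcf4 were negative instead, at -1.36, -0.05 and -0.36, so no direction holds for them on both scales. Zeb2, Twist1 and Tcf3 stayed positive, at 0.17, 0.42 and 0.15. The Grainyhead-like genes Grhl1, Grhl2 and Grhl3 differed by 0.30, 0.37 and -0.30, or 0.03, -0.32 and -0.22 renormalized.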

How the data were processed

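The deposited values are log2 expression per probe set, which the authors produced by RMA in Affymetrix Expression Console 1.1, as the submitters' processing notes state; their range gives the log base, and the array annotation and background settings are not given in the sources used here. No detection calls were used; precision is limited by the number of arrays. Of 35556 probe sets, 21789 had 1 gene symbol in the platform annotation, 1621 several and 12146 none; the highest-mean probe set was kept for each of 19938 symbols. Groups came from the sample titles, with 1 mouse per array, separate animals per the series' design text. The comparison used lmFit and eBayes of limma 3.58.1 (R 4.3.3; 3 residual and 2.39 prior degrees of freedom), two-sided, with Benjamini-Hochberg adjustment over all genes and a threshold of 0.05. The fit was tested on simulated data. The rough signal floor of an array was its average over 1015 olfactory receptor genes, and a member that did not exceed it anywhere in its lower group has only a bound. The members, the further lists, the floor and the alternatives were chosen with earlier results of these data known. All 37 members are named. Of the wider junction and factor lists, every gene that passed and the 4 with the smallest p are named. The remaining Snail, ZEB, Twist, Tcf and Grainyhead-like factors are named as well. Planned protein sequences were not used here. Alternatives were renormalization (also without control 1), median centring, an intensity trend or robust prior, leaving out dim genes, averaged or all probe sets, array weights, a block for the replicate number, and each array left out.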

Additional observations from a re-analysis of the deposited data

How the results depend on the processing

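Of 543 member values under the 15 alternatives, 491 kept their sign and their side of the threshold, and 23 changed sign; the cause was not tested. Tjp1, Epcam, Cdh1 and Ctnna1 were higher under all 15, with losses of the call as given above. Members called higher numbered 0 after renormalization and 2 with array weights (Tjp1 and Epcam), and 0 to 4 with each array left out. With an intensity trend Ctnna1 had an adjusted p = 0.0522 (limma). The number of all genes called higher moved too, from 1072 to 51 after renormalization, 263 with array weights and 622 with an intensity trend. Members called lower numbered 1 when renormalized without control 1 and 0 to 2 with each array left out. The members' median difference was 0.54 without dim genes, a filter that left 25 of the 37.

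Of the other junction genes, 0 were called higher after renormalization or with array weights, 1 with an intensity trend, a robust prior or renormalization without control 1, and 0 with any array left out. Of the epithelial factors, 0 were called higher after renormalization, 1 when renormalized without control 1, and 0 to 2 with each array left out, which also gave 0 to 2 lower.

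Signs changed after renormalization for Cldn23 (0.073), Cxadr (-0.33) and Ctnnd1 (-0.15), and with median centring for Tjp3 (0.064). Renormalized without control 1 they changed for Cldn3 (-0.085), Cldn9 (0.17), Cldn23 (0.20), Cxadr (-0.28), Cdh3 (0.10), Ctnnd1 (-0.50) and Ppl (0.25). With each array left out in turn, values that changed sign ran from -0.14 to 0.30 for Cldn1, from -0.028 to 0.046 for Cldn5, from -0.27 to 0.0075 for Cldn23, from -0.023 to 0.013 for Tjp3, from -0.10 to 0.22 for Ocln, from -0.17 to 0.17 for Marveld3, from -0.22 to 0.63 for Dsp, from -0.58 to 0.15 for Ppl and from -0.63 to 0.29 for Evpl.

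With the replicate number as a block, 4 members, 4 other junction genes and 1137 of all 19938 genes were called higher. The 4 members were those called without it. The labels give only a shared number, and same-numbered arrays deviated from their group means with correlations of -0.03 (number 1) and 0.13 (number 2) across genes, so no pairing was assumed. Signal limits 9 of the 37 members, which were no higher than the floor on at least 1 array.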
